A study of Mus musculus with 6 samples.

Results

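Transcripts of 8 receptors for bone morphogenetic proteins (BMPs), activins and TGF-beta were examined in cells sorted from the forebrain of mouse embryos at embryonic day 12.5. The receptors were taken by symbol (Bmpr1a, Bmpr1b, Acvr1, Acvr1b, Tgfbr1, Bmpr2, Acvr2a and Acvr2b) and are 8 of 52636 genes in the count table. All 8 passed the filter on low counts, which left 16869 genes. SmadNes embryos were Nestin:Cre+/0 and control littermates Nestin:Cre0/0, and both were Smad1wt/fl and Smad5wt/fl on a background mixed from CD1, 129/ola and C57BL6 mice. Both genotypes thus carried 1 floxed and 1 unfloxed allele of each Smad gene, and Cre, driven by Nestin in neural progenitors, was present in SmadNes embryos alone. Each genotype gave 3 pools of cells that stained for the surface protein Prominin1, labelled as cortical radial glia, and the pools bear the names SF3, SF4 and SF5_6 in either genotype. Whole forebrains were dissected, and the pairs with the best RNA integrity were the ones sequenced. The libraries held between 32997423 and 40744672 expected counts.

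BMPs, activins and TGF-betas bind complexes of type I and type II receptors, both of which are serine/threonine kinases. The type II receptor phosphorylates the type I receptor, and the type I receptor then phosphorylates Smad proteins. Bmpr1a, Bmpr1b and Acvr1 are type I receptors that act mainly on Smad1, Smad5 and Smad9, whereas Acvr1b and Tgfbr1 act on Smad2 and Smad3. Bmpr2 is a type II receptor for BMPs, while Acvr2a and Acvr2b bind activins and also several BMPs and GDFs. In the early forebrain BMP signals from the dorsal midline pattern the cortex, and in mice Bmpr1a and Bmpr1b are known to act there in overlapping ways.

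The coding sequences of these related kinases were compared first, because reads that fit 2 genes would be shared between them by estimation. Among the 28 pairs of receptors the longest identical run of bases between coding sequences was 20 bases and the shortest such maximum was 10, against reads of 100 bases. The run of 20 bases was found between Bmpr1a and Acvr1, in the part of the kinase that encodes the catalytic loop, and another of 20 bases between Bmpr1b and Acvr1. The window of 120 coding bases around the first one is shown for both genes from GENCODE M21, 5′ to 3′, with capitals at the 25 positions where they differ. In Bmpr1a it spans bases 1037 to 1156 of the coding sequence, and in Acvr1 bases 959 to 1078.
Bmpr1a: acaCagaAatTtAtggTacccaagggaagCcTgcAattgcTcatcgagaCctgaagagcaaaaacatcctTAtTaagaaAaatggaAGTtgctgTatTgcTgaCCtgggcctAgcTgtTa
Acvr1: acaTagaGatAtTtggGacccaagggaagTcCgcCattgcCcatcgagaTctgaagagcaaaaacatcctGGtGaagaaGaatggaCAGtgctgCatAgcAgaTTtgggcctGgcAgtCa

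The region before a RefSeq transcription start was rich in CpG for each receptor other than Bmpr1b. RefSeq's table (GRCm38.p6) gives 11 starts for the 8 genes, and a window of 250 bases before each start was read. A window was taken as CpG-rich where its GC content was above 50% and its ratio of observed to expected CpG was above 0.6, which held for 30.8% of 32851 windows of the same length over all genes. Each receptor other than Bmpr1b had such a window, with ratios from 0.735 for Acvr2b to 1.23 for Acvr2a. Tgfbr1 also had a window that was not CpG-rich (chr4:47385966-47386215, plus strand), with 3 CpG and a ratio of 0.175. The 3 windows of Bmpr1b had ratios of 0.0732, 0.299 and 0.252. The GENCODE gene of Bmpr1b begins farther upstream than these starts, and that start was not analysed here. The same holds for Acvr1, Bmpr1a and Bmpr2, whose whole windows lay inside the GENCODE gene. The windows of Acvr1, Acvr1b, Acvr2b, Bmpr1a and Bmpr2 and the third Bmpr1b window overlapped an exon in GENCODE. At least part of each is thus transcribed in that annotation. The first Bmpr1b window (chr3:141982265-141982514, minus strand) and the first Tgfbr1 window (chr4:47352972-47353221, plus strand) are shown with each CpG in capitals, since these genes lie at opposite ends of the levels described next. In the windows shown Bmpr1b has 1 CpG and Tgfbr1 has 29. The other windows of Bmpr1b have 5 CpG each and that of Tgfbr1 has 3, so this contrast does not hold for every start. It did not extend to the other receptors either. Acvr1, whose level was above that of Bmpr1b alone, had 46 CpG and a ratio of 1.11. Acvr2b, whose level was below that of Tgfbr1 alone, had the lowest ratio of the CpG-rich windows. A relation of CpG to level was not tested.
Bmpr1b: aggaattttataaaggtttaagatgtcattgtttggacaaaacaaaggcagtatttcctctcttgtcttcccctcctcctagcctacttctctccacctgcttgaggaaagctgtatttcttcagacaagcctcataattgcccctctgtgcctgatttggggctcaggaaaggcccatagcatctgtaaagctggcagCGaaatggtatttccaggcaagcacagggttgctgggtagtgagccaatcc
Tgfbr1: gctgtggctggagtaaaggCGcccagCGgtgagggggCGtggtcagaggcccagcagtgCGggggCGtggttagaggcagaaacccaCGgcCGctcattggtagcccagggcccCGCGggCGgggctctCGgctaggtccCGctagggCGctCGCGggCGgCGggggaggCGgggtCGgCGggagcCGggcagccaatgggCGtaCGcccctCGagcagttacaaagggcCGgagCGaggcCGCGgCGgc
The palindrome GGCGCC, a sequence that Smad1 and Smad5 complexes are known to bind in BMP target genes, was searched in the same windows. It was present once each in the first windows of Bmpr1a, Bmpr2 and Tgfbr1 and in none of the other receptor windows. Over all genes 9.59% of windows held it, and 24.6% of the CpG-rich ones did.

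Per length, the receptors spanned about an order of magnitude in these cells. CPM are counts scaled by library size, and they were divided by the length of the merged exons. Tgfbr1, the type I receptor of TGF-beta, had the highest level with 31.6 ± 2.59 CPM per kb of merged exons (SD over 6 libraries). It was followed by Acvr2b at 28.01 ± 1.55, Bmpr1a at 25.9 ± 1.87 and Acvr1b at 25.7 ± 1.61 CPM per kb. Neighbours within these 4 overlapped between libraries, although Tgfbr1 exceeded Acvr2b, and Acvr2b exceeded Bmpr1a, within each of the 6 libraries. Bmpr1a exceeded Acvr1b in 3 of 6 libraries, so their order was not resolved.

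Bmpr2 at 16.6 ± 0.894 and Acvr2a at 16.4 ± 0.621 CPM per kb formed a lower level and were not resolved from each other. Acvr1, the type I receptor also called ALK2, stood below them at 6.85 ± 0.944 CPM per kb, and Bmpr1b was lowest at 3.07 ± 0.284. The lowest of Acvr2a's libraries lay above the highest of Acvr1's, and the lowest of Acvr1's above the highest of Bmpr1b's. Taking the longest coding transcript as the length kept the same order, but placed Bmpr2 at 23.1 and Acvr1 at 10.0 CPM per kb, because the merged exons of Bmpr2 (17.983 kb) and Acvr1 (4.829 kb) are longer than those transcripts (12.899 and 3.293 kb). On that scale the libraries of Bmpr2 no longer overlapped those of Acvr2a but overlapped those of Acvr1b, with a ratio of 1.11 between Acvr1b and Bmpr2 in place of 1.547. Tgfbr1 then exceeded Acvr2b in 5 of 6 libraries, with a ratio of 1.035, and the libraries of Acvr2b no longer overlapped those of Bmpr1a.

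**Figure D1:**
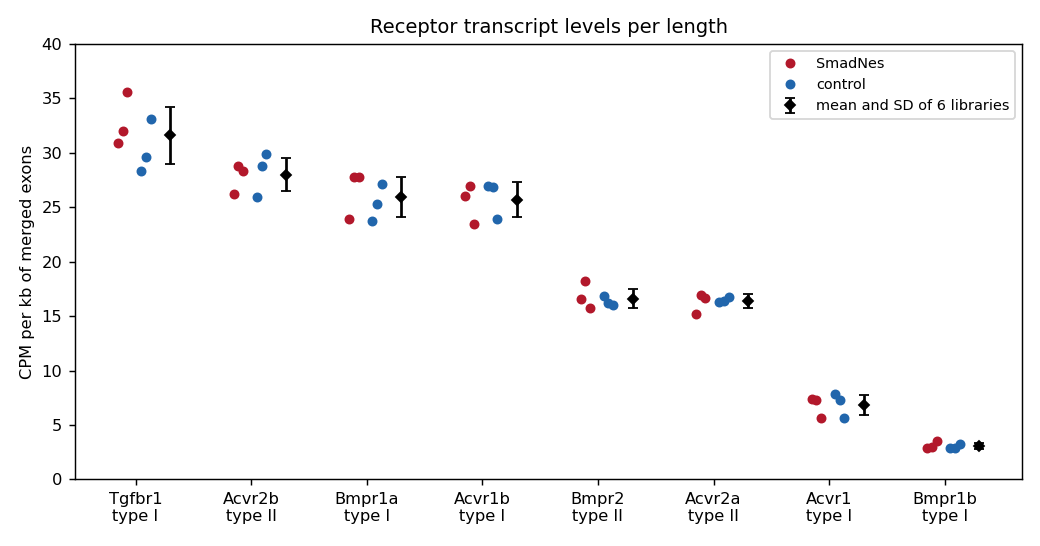
Transcript level of each receptor (CPM per kb of merged exons, y axis) in order of the mean, with 3 SmadNes and 3 control libraries as points and the mean with SD of all 6 libraries as a diamond. Tgfbr1 is highest at 31.6 and Bmpr1b lowest at 3.07 CPM per kb, and the genotypes overlap for each receptor.

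Among the type I receptors that act on Smad1 and Smad5, Bmpr1a made up most of the transcripts on the per-length scale. Its share of the summed level of Bmpr1a, Acvr1 and Bmpr1b was 69.9%, 73.1% and 75.1% in SmadNes SF3, SF4 and SF5_6, and 69.0%, 71.4% and 75.2% in the controls of the same names. Bmpr1b held between 7.74% and 9.57% of that sum over the 6 libraries. The summed level of these 3 receptors lay between 34.2 and 37.96 CPM per kb, that of Acvr1b with Tgfbr1 between 55.3 and 59.0, and that of the 3 type II receptors between 58.0 and 64.0. These sums and shares used the merged exons alone. With the longest coding transcript as the length, Acvr2b stood at 34.6, Bmpr2 at 23.1 and Acvr1 at 10.0 CPM per kb. Sums and shares would move on that scale and were not computed for it.

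The comparison of SmadNes with control asks whether receptor transcripts differ when Cre acts on the floxed Smad1 and Smad5 copies. The targeted genes were read first. Smad5 had 388, 411 and 373 CPM in SmadNes SF3, SF4 and SF5_6, against 290, 299.9 and 287 CPM in the controls, and Smad1 had 86.9, 92.9 and 85.7 CPM in SmadNes, against 72.7, 77.8 and 76.1 CPM in controls. Both stood higher in the libraries labelled SmadNes, in each of the 3 pairs, and the cause was not tested. Reads from exons that Cre leaves in place are part of a whole-gene count, which therefore cannot serve as a check of the recombination. Every direction given for the genotypes rests on the labels.

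None of the 8 receptors was called between the genotypes. EdgeR called 0% of the 16869 genes, so the receptors' count of 0 equals the background, and all 8 had an adjusted p of 0.999987. At an unadjusted p below 0.05 edgeR found 0 of the 8 receptors and 177 of the 16869 genes. DESeq2 called none of the receptors either. Neither fit used the pool names, so differences between pools counted as spread, which limits what these 0 calls can show. The fitted log2 differences and SEs given for each receptor below are from this edgeR fit, and the fit with pool names follows them. The libraries of the genotypes overlapped for each receptor, while over all genes 2.39% stood apart with SmadNes higher and 2.38% with SmadNes lower. The median log2 difference (SmadNes minus control) of the 8 was 0.01, beside -0.0004 for all genes tested.

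Markers of other cells were read beside the genotypes, and their part in the receptor values was not tested. The summed level of 13 markers of the ventral telencephalon was 79.3, 76.9 and 231 CPM in SmadNes SF3, SF4 and SF5_6, against 140, 84.3 and 330.03 CPM in controls, and 11 of the 13 were lower in SmadNes in all 3 pairs, beside 14.3% of all genes. Of 15 markers of cortical neurons 6 were lower in all 3 pairs, beside the same 14.3%, with sums of 5979, 5797 and 4715 CPM in SmadNes and 6806, 5704 and 4750.3 CPM in controls. The neuronal sum was the lower one in SmadNes in SF3 and SF5_6 and the higher one in SF4. The 14 radial glia markers summed to 2587, 2833 and 2940.0 CPM in SmadNes, against 2432, 2731 and 2881 CPM in controls, with 2 of them higher and 1 lower in all 3 pairs. None of these markers was called between genotypes, with or without the pool name as a block in the fit. With the block, 9 of 13 ventral, 5 of 15 neuronal and 3 of 14 radial glia markers had an unadjusted p below 0.05 in edgeR's test, beside 6.23% of all genes. The log2 difference was positive for 0 of 9 erythroid markers tested (median -0.55) and for 11 of 11 mesenchyme and pericyte markers (median 0.19). Of these, 2 and 0 kept that direction in all 3 pairs, and 0 were called. With the block, 4 of 9 erythroid and 0 of 11 mesenchyme and pericyte markers had an unadjusted p below 0.05 in edgeR's test, beside the same 6.23%.

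Of the BMP type I receptors, Bmpr1a (ENSMUSG00000021796.14, GRCm38 chromosome 14, 34410734 to 34503341, minus strand) had 152, 176 and 177 CPM in SmadNes SF3, SF4 and SF5_6, against 151, 161 and 173 CPM in control SF3, SF4 and SF5_6. It stood higher in SmadNes in each of the 3 pairs, by 0.01 to 0.13 on the log2 scale, while the pools of 1 genotype differed by more than that. The group means were 168 ± 14.2 CPM in SmadNes and 161 ± 10.9 CPM in controls (SD, n = 3 each). The fitted log2 difference was 0.06 (SE 0.081).

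Bmpr1b (ENSMUSG00000052430.15, chromosome 3, 141837136 to 142169425, minus strand) is a close relative of Bmpr1a. It had 17.1, 17.5 and 21.1 CPM in SmadNes, against 17.1, 17.2 and 19.6 CPM in controls, in the same order of pools. In both genotypes the SF5_6 pool was the highest, and the log2 difference between genotypes was 0.05 (SE 0.110). Its counts were the lowest of the receptors, at 577 to 731 per library, which leaves a counting error of at most 4.16% per library.

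Acvr1 (ENSMUSG00000026836.15, chromosome 2, 58388644 to 58567157, minus strand) had 35.8, 35.1 and 27.3 CPM in SmadNes, against 37.8, 35.1 and 27.4 CPM in controls. The SF5_6 pools of both genotypes lay below the other 4 libraries. Within pairs the log2 difference was -0.08 in SF3 and near 0 in SF4 (-0.0005) and SF5_6 (-0.0039), and the fitted difference was -0.03 (SE 0.155).

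The type I receptors that act on Smad2 and Smad3 showed different patterns. Acvr1b (ENSMUSG00000000532.10, chromosome 15, 101174067 to 101213684, plus strand), the activin type I receptor, had 115, 119 and 104 CPM in SmadNes, against 119, 119 and 105 CPM in controls. Its fitted log2 difference was -0.02 (SE 0.076), and again the SF5_6 pools were the lowest of each genotype. A microRNA gene, Mir6962, lies within it on the same strand.

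Tgfbr1 (ENSMUSG00000007613.15, chromosome 4, 47353222 to 47414931, plus strand) had 202, 209 and 233 CPM in SmadNes SF3, SF4 and SF5_6, against 185, 194 and 216 CPM in controls. Each SmadNes pool lay above the control pool of its own name, by 0.13, 0.11 and 0.10 on the log2 scale, although the genotypes as groups overlapped because SF5_6 was high in both. The means were 215 ± 16.0 CPM in SmadNes and 198 ± 16.2 CPM in controls (SD, n = 3 each), a ratio of 1.08. The fitted log2 difference was 0.11 (SE 0.082).

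The type II receptors came next. Bmpr2 (ENSMUSG00000067336.6, chromosome 1, 59763400 to 59879014, plus strand) had 298, 328 and 283 CPM in SmadNes, against 302, 291 and 288 CPM in controls. Its difference lay in the SF4 pair alone (log2 0.17), with -0.02 in SF3 and -0.03 in SF5_6, and its fitted value was 0.04 (SE 0.066). GENCODE also places an uncharacterised transcript, Gm38125, on the same strand within the gene.

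Acvr2a (ENSMUSG00000052155.5, chromosome 2, 48814109 to 48903269, plus strand) had 86.6, 96.4 and 94.96 CPM in SmadNes, against 92.4, 93.4 and 95.4 CPM in controls. It varied the least of the 8 over the libraries, and the sign of its difference changed between pairs (-0.09, 0.05 and -0.006). Acvr2b (ENSMUSG00000061393.14, chromosome 9, 119402118 to 119434995, plus strand) had 103, 113 and 111 CPM in SmadNes, against 102, 113 and 117 CPM in controls. Their fitted log2 differences were -0.02 (SE 0.055) for Acvr2a and -0.02 (SE 0.069) for Acvr2b.

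**Figure D2:**
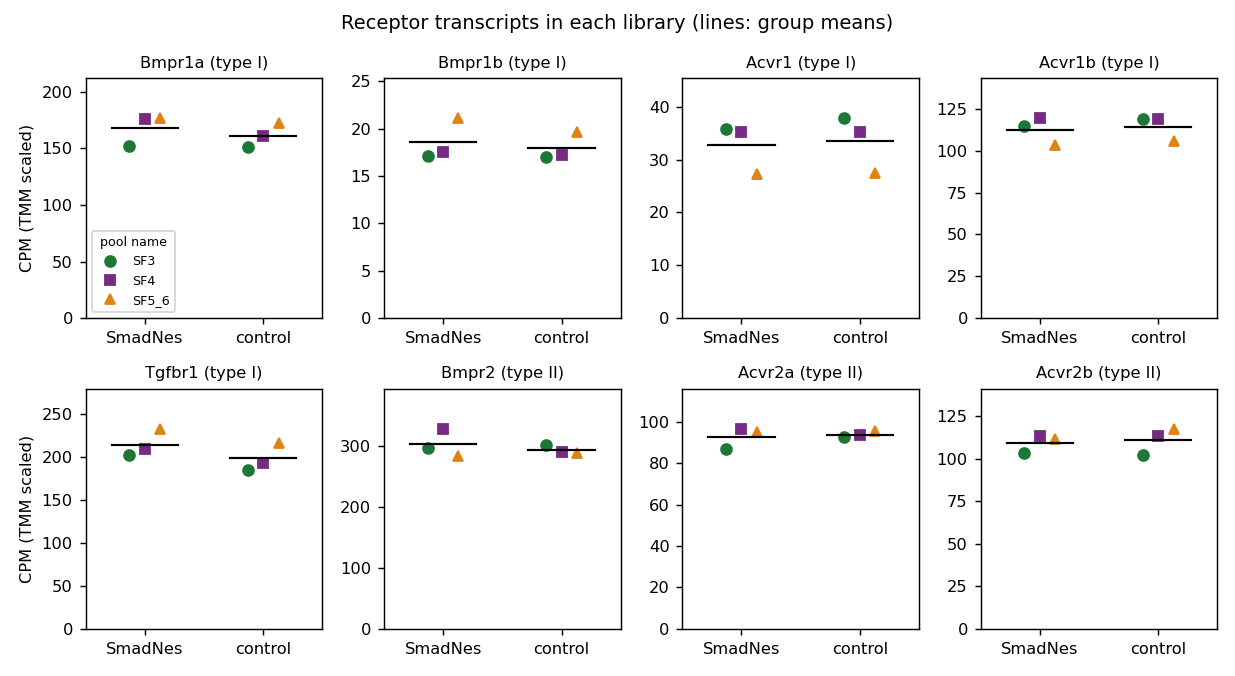
CPM of each receptor (y axis, from 0) in the 3 SmadNes libraries, left, and the 3 control libraries, right, with the pool name as colour and shape and a line at each group mean. For Acvr1 SF5_6 is at 27.3 CPM in SmadNes and 27.4 CPM in control, whereas for Bmpr2 SF4 is at 328 CPM in SmadNes and 291 CPM in control.

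Because the pool names pair the libraries, the fit with the pool name as a replicate block measures the genotype difference within pairs. With the block edgeR called 4 genes, 0.0237% of those tested, and 0 of the 8 receptors. Tgfbr1 had the smallest p of the 8 in this fit, with a log2 difference of 0.11 (SE 0.033), an unadjusted p of 0.00801 and an adjusted p of 0.577, and did not pass. It was the only receptor with an unadjusted p below 0.05 there, 1 of 8, while 6.23% of all genes lay below that p. The 95% interval included 0 for the other 7 receptors, and over all 8 no interval reached below 0.905-fold or above 1.14-fold.

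Signs within pairs gave little more. Bmpr1a, Bmpr1b and Tgfbr1 were higher in SmadNes in all 3 pairs, 3 of 8, beside 13.8% of all genes, and Acvr1 was lower in all 3, 1 of 8, beside 14.3%. Apart from Tgfbr1, these 4 genes had blocked intervals that included 0.

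**Figure D3:**
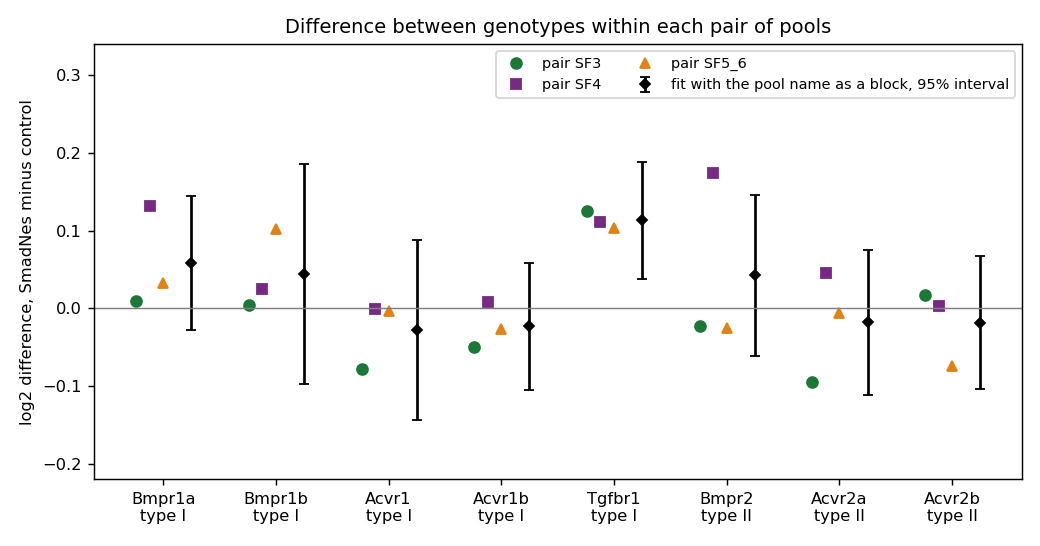
Log2 difference (SmadNes minus control, y axis) of each receptor in the pairs SF3, SF4 and SF5_6, with the estimate of the fit with the pool name as a block and its 95% interval in black. The 3 pairs of Tgfbr1 lie between 0.10 and 0.13, and its interval is the one that does not include 0.

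Transcripts of 4 of the 8 receptors were called between the pool names. With genotype as a covariate, edgeR called 4 of the 8 receptors between SF3, SF4 and SF5_6, beside 28.8% of all genes, namely Acvr1 (adjusted p 0.00237), Tgfbr1 (0.00936), Bmpr1a (0.0226) and Acvr1b (0.0226), all of them type I. Acvr2b, of type II (0.0535), and Bmpr1b, of type I (0.0547), lay just above the cutoff, and Bmpr2 (0.308) and Acvr2a (0.329) did not pass. Pool means of Bmpr1b spanned 0.253 on the log2 scale, more than the 0.206 of Bmpr1a, which was called. The calls therefore do not separate type I from type II receptors. The median range between pool means was 0.20 on the log2 scale for the 8 receptors and 0.25 for all genes tested. Those genes were not matched to the receptors in expression, so the medians do not rank the receptors against other genes. In bulk RNA, fewer cells of a type and less RNA per cell cannot be told apart.

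Acvr1 had the widest range of the 8, with a mean of 36.8 CPM in SF3, 35.1 CPM in SF4 and 27.3 CPM in SF5_6, a ratio of 1.35 between the highest and the lowest. Acvr1b was also lowest in SF5_6, at 105 CPM, against 117 in SF3 and 119 in SF4. Tgfbr1 and Bmpr1a showed the opposite order, since Tgfbr1 averaged 194, 201 and 225 CPM and Bmpr1a 151, 169 and 175 CPM in SF3, SF4 and SF5_6. The share of Acvr1 in the BMP type I sum was accordingly lowest in SF5_6, at 15.3% in SmadNes and 15.7% in control, against 19.2% to 22.7% in the other libraries.

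These calls rested partly on single libraries. Without control SF5_6 only Acvr1 passed (adjusted p 0.0226), while Tgfbr1 (0.0858), Bmpr1a (0.07) and Acvr1b (0.154) did not. Bmpr1a was also not called without SmadNes SF3 (0.144), and Acvr1b was not called without SmadNes SF4 (0.0689), without SmadNes SF5_6 (0.146) or by DESeq2 (0.0658), whereas Acvr2b was called without SmadNes SF5_6 (0.0499). Acvr1 passed in each of these fits.

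**Figure D4:**
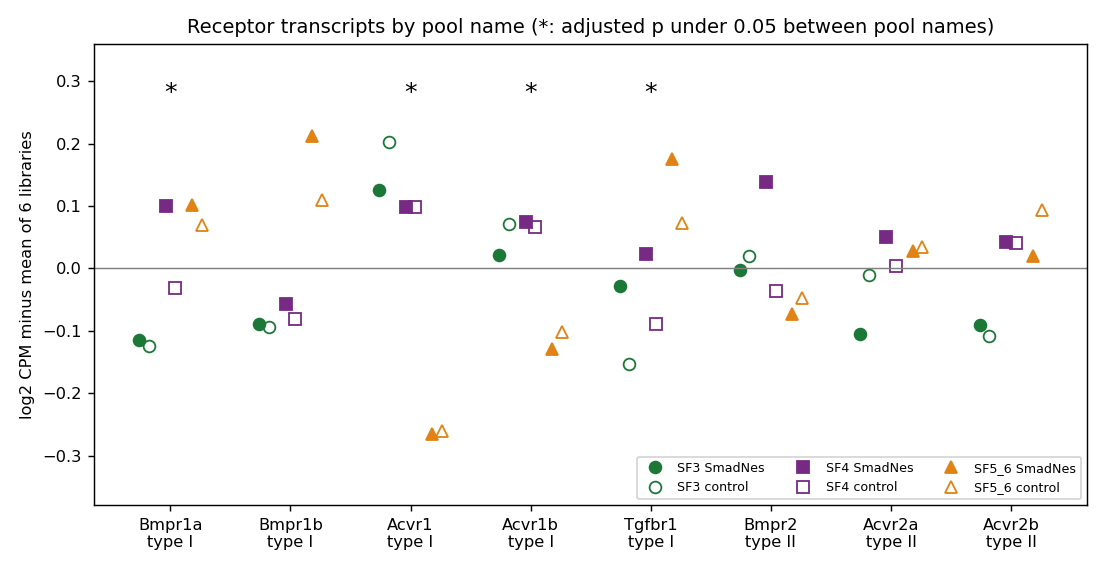
Log2 CPM of each receptor minus its mean over the 6 libraries (y axis), with pool name as colour and shape, SmadNes filled and control open, and an asterisk where the adjusted p between pool names was below 0.05. In SF5_6 Acvr1, Acvr1b and Bmpr2 lie below 0 in both genotypes, and Bmpr1a, Bmpr1b, Tgfbr1, Acvr2a and Acvr2b lie above 0.

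Markers of cell types were also compared between the pool names, where the counts called stand beside 28.8% of all genes. The summed level of the radial glia markers was higher in both SF5_6 libraries than in the other 4, and 11 of the 14 were called between pool names. Of these 11, Vim, Nes and 6 others were highest in SF5_6, while Pax6, Emx1 and Notch1 were highest in SF4, and Emx1 and Notch1 were lowest in SF5_6. The sum of the markers of cortical neurons was lower in both SF5_6 libraries than in the other 4, with 13 of 15 called. Of these 13, 10 were lowest in SF5_6, among them Dcx, Neurod2 and Neurod6, whereas Stmn2, Nefl and Nefm were highest there. For 8 markers of intermediate progenitors the sum was 1260.2 CPM in SmadNes SF5_6 and 1335 CPM in control SF5_6, against 1783 to 1934 CPM elsewhere, with 6 called.

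Markers of mesenchyme and pericytes summed to 1322 CPM in SmadNes SF5_6 and 1052 CPM in control SF5_6, against 274 to 902 CPM elsewhere, with 10 of 11 called. Of the ventral telencephalon markers 11 of 13 were called, with the highest sums in SF5_6. Erythroid markers summed to 666 CPM in SmadNes SF5_6 and 1126 CPM in control SF5_6, against 116 to 379 CPM elsewhere (9 of 9 tested called). Microglial markers were lowest in SF4, with sums of 103, 16.02 and 76.6 CPM in SmadNes SF3, SF4 and SF5_6 and 97.5, 18.5 and 72.04 CPM in controls (10 of 10 called). Markers of the cortical hem and choroid plexus summed to 587 CPM in SmadNes SF5_6 and 810.04 CPM in control SF5_6, against 411 to 553 CPM elsewhere (7 of 11 called). Markers of endothelium summed to 26.2 CPM in SmadNes SF5_6 and 26.8 CPM in control SF5_6, against 19.7 to 25.1 CPM elsewhere, with 2 of 8 tested called, a share below that of all genes. No symbol of these lists was at 0 in all libraries. The part of these cells in the receptor differences between pools was not tested. Prom1, which encodes the protein used for the sort, averaged 108 CPM in SF3, 126 CPM in SF4 and 131 CPM in SF5_6. Neuronal markers were present beside it, so receptor levels given here are those of the sorted mixture.

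Other genes of the pathway were described from fixed lists. Of further receptors and coreceptors, 10 of 13 passed the filter, 0 were called between genotypes with or without the block, and their median log2 difference was 0.06. Tgfbr2, the type II partner of Tgfbr1, had 11.97, 4.01 and 11.9 CPM in SmadNes SF3, SF4 and SF5_6 and 9.60, 5.38 and 10.3 CPM in controls. Unlike any of the 8 receptors it was lowest in SF4, and it was called between pool names (adjusted p 0.00152), as were 9 of the 10, beside 28.8% of all genes. Among those 9, Neo1, a receptor of RGM proteins, averaged 259 ± 36.2 CPM in SmadNes and 264 ± 51.6 CPM in controls, and the RGM coreceptors stood at 129 ± 9.5002 CPM in SmadNes and 132 ± 12.3 CPM in controls for Rgma and at 71.8 ± 8.92 CPM in SmadNes and 72.6 ± 9.91 CPM in controls for Rgmb (SD, n = 3 each). Acvr1c, a further type I receptor acting on Smad2 and Smad3, had its lowest pool mean in SF5_6 (2.82 CPM, against 7.99 in SF3 and 6.57 in SF4), as Acvr1 and Acvr1b did. Tgfbr3, Acvrl1, Eng and Bambi were the other 4 called, each highest in SF5_6 and lowest in SF4.

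No ligand, extracellular inhibitor or receptor regulator was called between genotypes. The counts were 0 of 18 tested of 32 ligands, 0 of 13 tested of 16 inhibitors and 0 of 20 regulators, with or without the block, and the medians were 0.02, 0.04 and 0.02 on the log2 scale. The ligands with the highest CPM were Bmp7 at 41.2 ± 9.4999 CPM in SmadNes and 41.4 ± 17.2 CPM in controls, Gdf11 at 32.3 ± 7.55 CPM in SmadNes and 34.3 ± 7.47 CPM in controls, and Tgfb2 at 31.9 ± 4.08 CPM in SmadNes and 28.4 ± 3.93 CPM in controls. The inhibitors with the highest CPM were Twsg1 at 136 ± 6.19 CPM in SmadNes and 133 ± 3.49 CPM in controls, Fstl1 at 126 ± 42.1 CPM in SmadNes and 120.1 ± 43.4 CPM in controls, and Nbl1 at 9.57 ± 3.18 CPM in SmadNes and 8.99 ± 1.84 CPM in controls. Among regulators, the scaffold protein gene Rack1 stood at 632 ± 9.42 CPM in SmadNes and 606 ± 20.0 CPM in controls, and the ubiquitin ligase gene Nedd4l at 185 ± 39.5 CPM in SmadNes and 198 ± 52.5 CPM in controls. Fkbp1a, which binds type I receptors and keeps them inactive, stood at 177 ± 9.88 CPM in SmadNes and 175 ± 5.88 CPM in controls. Of the 8 Smads, edgeR called 0 without the block and with it Smad5 alone, as higher in SmadNes (log2 difference 0.42, adjusted p 0.00757). Smad1 was also higher in the blocked edgeR fit, with a log2 difference of 0.23, and was not called (adjusted p 0.257). Smad4, the partner shared by both branches, stood at 180 ± 15.7 CPM in SmadNes and 181 ± 8.24 CPM in controls.

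Ligands, inhibitors, Smads and regulators were compared between the pool names as well, beside 28.8% called over all genes. Of the ligands, 12 of 18 were called, with Bmp4, Bmp5, Bmp6, Bmp7, Gdf5, Gdf10 and Gdf11 highest in SF5_6, Bmp3, Inhba and Tgfb1 highest in SF3, and Inhbb and Tgfb2 highest in SF4. The shares of the other lists were nearer to that of all genes, at 4 of 13 inhibitors, 3 of 8 Smads and 4 of 20 regulators. Of the inhibitors, Chrdl1, Fstl1 and Nbl1 were called and highest in SF5_6, and Bmper was called and highest in SF4. The Smads called were Smad3 and Smad9, highest in SF5_6, and Smad4, highest in SF4, and the regulators called were Nedd4l, Tab1, Ppp1r15a and Ski, each lowest in SF5_6.

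The genes whose profile over the 6 libraries was most like each receptor were named by the root mean square distance between log2 CPM profiles, each centred on its own mean, among 12868 protein-coding genes. For Acvr1b these were Fam168b (0.00805) and Slc25a23 (0.00983), for Bmpr1b Tenm3 (0.012) and Timm8a1 (0.0181), and for Acvr1 Fam78b (0.0167) and Mien1 (0.017). Tgfbr1 was closest to Nfatc3 (0.0141) and Gstcd (0.0193), and Bmpr1a to Lnpk (0.0164) and Ythdf3 (0.0166). The type II receptors were closest to Appl2 (0.0203) and Ube2b (0.0206) for Bmpr2, Rc3h1 (0.0138) and Mtf2 (0.0163) for Acvr2a, and Slc25a10 (0.0132) and Smndc1 (0.0148) for Acvr2b. No receptor was among the nearest genes of another. With 6 libraries and so many candidates, such closeness is a description of these libraries.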

How the data were processed

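RNA of sorted forebrain cells was measured in 3 pools of SmadNes and 3 pools of control embryos. Per the labels' protocols, the authors mapped stranded paired-end reads of 100 bases to GRCm38 with STAR 2.5.3a and estimated counts with RSEM 1.3.0 on GENCODE M15, with DESeq2 1.18 listed in the submitters' processing notes. The deposited values are the authors' expected counts per gene, already whole and not scaled between libraries, and no source states how they were made whole. All 6 columns were assigned through the library names in the sample titles.

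Of 52636 genes, 16869 passed filterByExpr and were fitted with edgeR 4.0.16 in R 4.3.3 (TMM scaling, quasi-likelihood F test, Benjamini-Hochberg adjustment over all 16869). A gene was called at an adjusted p below 0.05. Genotype was the only term of the first comparison. The second tested the 3 pool names with genotype as a covariate. Standard errors are the log2 difference divided by the square root of F, and 95% intervals use the moderated degrees of freedom. The genotype fit, with and without the block, and the pool-name fit were run on simulated counts with known changes. Recovery of those changes was required of the blocked fit and the pool-name fit, and not of the unblocked genotype fit. DESeq2 1.42.0, other size factors, no low-count filter, left-out libraries and a replicate block were tried as alternatives.

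Both genotypes use the same 3 pool names, and the labels speak of pairs. Across genes, the departure of a library from its genotype's mean correlated with that of its namesake at 0.451, 0.665 and 0.685, and at -0.085 or below with other names. Departures from a mean of 3 libraries sum to 0, so the negative values follow in part from the positive ones and add no separate support. From the labels and the positive values, the names were taken to pair the samples. The block lowered edgeR's common biological coefficient of variation to 0.0556, against 0.198 in its absence.

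CPM are counts scaled by TMM library sizes. Levels per length divide CPM by the merged exon length in kb from GENCODE M21, which uses the same build, and all 8 receptors matched by ID. Promoter windows are RefSeq's for GRCm38.p6. Libraries of 1 genotype differed by a chi-square of 10.6 to 43.9 per degree of freedom, so none was a copy. A count of 0 allows up to 3 counts, at most 0.0909 CPM, and this covers counting error only. The labels do not give the embryos per pool, so the spread behind each p-value is that of the pools sequenced.

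The receptors, the other gene lists and the tests were chosen with earlier results of these data known. The text names all receptors, the targeted genes, the 3 list members with the highest mean CPM, list members called in a reported fit, and for each receptor the 2 protein-coding genes of at least 1 CPM with the smallest root mean square distance between centred log2 CPM profiles. Log2 CPM used a prior count of 0.5.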

Additional observations from a re-analysis of the deposited data

How the results depend on the processing

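No receptor was called between genotypes under any of the 13 alternatives, and the direction of Tgfbr1 (0.0505 to 0.173) and Bmpr1a (0.0132 to 0.128) was the same in all of them, though their size moved by more than 1.5 times. Differences of the other 6 receptors, all close to 0, changed sign when libraries or pairs were left out: Acvr1 ranged from -0.161 to 0.0848, Acvr1b from -0.0840 to 0.0335, Acvr2a from -0.0521 to 0.0294, Acvr2b from -0.0755 to 0.0199, Bmpr1b from -0.0541 to 0.109 and Bmpr2 from -0.0257 to 0.0908. The cause was not tested. Over all genes, 0 were called with every library in the fit, 7 with DESeq2 and 4 with the replicate block. Between 0 and 149 genes were called when 1 library, or 1 pair with the block, was left out, the 149 without the SF5_6 pair and 48 without the SF4 pair. Between pool names, 4864 genes were called by edgeR and 3157 by DESeq2, and 1 to 4 receptors without 1 library each, the lowest without control SF5_6. With 1 library left out, its pool has 1 library, which is assumed to vary like the others. Of the levels per length, 5 of 8 moved by more than 1 SD with the longest coding transcript as the length. Counts of 577 and above per receptor and library leave a counting error of at most 4.16%.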

Other observations

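BMP target genes differed between the pool names. Of 12 targets tested, 9 were called between pool names by edgeR, beside 28.8% of all genes. Id1 and Id3, inhibitors of differentiation that BMPs induce, were highest in SF5_6, with means of 13.7 and 43.5 CPM there, against 5.55 and 13.9 CPM in SF3 and 6.57 and 14.8 CPM in SF4. Msx2, Smad9, Bambi and Atoh8 were also called and highest in SF5_6. Msx1, a homeobox gene of the dorsal midline that is also on the list of hem and choroid plexus markers, averaged 32.7 CPM in SF5_6, against 16.8 CPM in SF3 and 15.7 CPM in SF4. By contrast Id2 was lowest in SF5_6 (49.2 CPM, against 78.9 in SF3 and 74.9 in SF4) and Id4 was highest in SF4 (448 CPM, against 346 in SF3 and 381 in SF5_6). Id4 averaged 409 ± 50.4 CPM in SmadNes and 374 ± 53.2 CPM in controls, Hey1 80.9 ± 7.79 CPM in SmadNes and 78.4 ± 1.33 CPM in controls, and Id2 63.5 ± 14.7 CPM in SmadNes and 71.8 ± 19.8 CPM in controls (SD, n = 3 each). Between genotypes 0 of the 12 were called with or without the block. Their median log2 difference was -0.09, with 3 of 12 positive, beside 8403 of 16869 genes. Id4 was higher in SmadNes in all 3 pairs and Msx2 was lower. With the block 2 of 12 had an unadjusted p below 0.05 in edgeR's test, beside 6.23% of all genes. In SF3, SF4 and SF5_6 the log2 difference was -0.12, 0.10 and -0.57 for Id1, and 0.05, 0.04 and -0.59 for Id3.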
